A study of Mus musculus with 12 samples.

Results

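The interferon regulatory factors are a family of transcription factors, and 8 of their genes (Irf1, Irf2, Irf3, Irf4, Irf5, Irf7, Irf8 and Irf9) were followed here by symbol through RNA-seq of a mouse macrophage line. All 8 were found among 54232 genes in the count table, and all 8 passed the filter on low counts that left 12771 genes for testing. The cells were RAW264.7, a mouse macrophage-like line derived from a virus-induced tumour. They were wild type, labelled Ing4-/-, or labelled Socs1-/-, and were left untreated or given lipopolysaccharide (LPS, a bacterial cell wall component) at 100 ng/ml for 3 h, with 2 libraries for each of the 6 groups. ING4 is a chromatin-binding protein of histone acetyltransferase complexes, and SOCS1 is an LPS- and cytokine-inducible inhibitor of JAK kinases. Each knockout carries a single line code in the labels and nothing says how many clones it stands for, so genotype and line cannot be told apart. The labels do not state whether replicate libraries were grown separately, and the p-values then cover library-to-library spread that may be technical.

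All interferon regulatory factors share a DNA-binding domain that recognises GAAA repeats. In macrophages, LPS engages TLR4, whose adaptors TRIF and MyD88 switch on kinases that phosphorylate IRF3, IRF5 and IRF7, and active IRF3 drives the interferon beta gene. Secreted interferon then acts through its receptor and JAK kinases on STAT2, which binds IRF9 within the ISGF3 complex that induces a second layer of genes, Irf7 among them. IRF1 is an activator induced by interferon gamma and NF-kB, IRF2 is best known as its antagonist, and IRF4 and IRF8 bind DNA largely with partners such as PU.1.

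The libraries held 17250815 to 24377950 counts. RNA from the disrupted loci was no check of the genotype labels. Ing4 had 2 to 10 counts per wild-type library and 6 to 29 per library labelled Ing4-/-, and Socs1 after LPS stood at 9.08 CPM (counts scaled to library size and composition) in both wild-type libraries and at 2.73 and 7.14 CPM in the Socs1-/- ones. Groups are therefore named by their labels throughout. Scaled by library size alone, all 9 macrophage markers had a mean of at least 1 CPM (Mertk had 0 counts in at least 1 library) and summed to 11027 to 24112 CPM, while B-cell markers summed to at most 0.725 CPM and T- and NK-cell markers to at most 0.348 CPM. The first LPS-treated Socs1-/- library stood apart: on the first principal component (54.4% of variance) it lay at -16.2, between the untreated libraries (-66.1 to -41.7) and the other 5 LPS libraries (62.4 to 74.4). Where leaving it out changed a call or a direction, or moved a named change by over 1.5 times, the value without it is given beside the result.

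Promoters were examined because several members are themselves interferon or STAT targets. RefSeq promoter windows on GRCm38.p6, 11 in all, were matched for 8 of 8 genes. The 250 bases before each start were searched on both strands. The letters TTCNNNGAA, the core of a STAT binding site, occurred before the first start of Irf1, Irf2 and Irf8. None of the other windows of the 8 genes held them, and 7.02% of all 32851 promoter windows did. The Irf8 window held that match at 2 places. The upstream stretches of these 3 genes are shown for that match, which is in capitals. They lie at chr11:53769764-53770013 (plus strand) for Irf1, chr8:46739516-46739731 (plus strand) for Irf2 and chr8:120736108-120736357 (plus strand) for Irf8.
Irf1: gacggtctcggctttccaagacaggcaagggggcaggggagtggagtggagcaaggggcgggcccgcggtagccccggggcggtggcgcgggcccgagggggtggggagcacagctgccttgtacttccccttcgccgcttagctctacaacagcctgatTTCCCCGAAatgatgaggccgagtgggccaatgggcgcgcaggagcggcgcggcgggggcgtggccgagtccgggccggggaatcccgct
Irf2: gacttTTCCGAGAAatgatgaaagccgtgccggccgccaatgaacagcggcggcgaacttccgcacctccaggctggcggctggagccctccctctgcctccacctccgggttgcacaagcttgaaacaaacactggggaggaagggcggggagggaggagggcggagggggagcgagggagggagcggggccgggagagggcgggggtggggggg
Irf8: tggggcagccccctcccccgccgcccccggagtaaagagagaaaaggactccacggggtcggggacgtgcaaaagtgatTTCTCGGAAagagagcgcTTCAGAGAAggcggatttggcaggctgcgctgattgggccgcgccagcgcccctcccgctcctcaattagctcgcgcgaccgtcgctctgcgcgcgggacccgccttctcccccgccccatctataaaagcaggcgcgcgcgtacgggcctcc

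Relative to the start, the Irf1 match lay at -90 to -82, the Irf2 match at -224 to -216, and the Irf8 matches at -171 to -163 and -153 to -145. The Irf2 window also held an interferon-stimulated response element (GAAANNGAAA) at -241 to -232, outside the stretch shown, which 2.98% of windows hold. A composite ETS-IRF element (GGAANNGAAA, in 2.30% of windows) overlapped it. The NF-kB letters GGGNNTTTCC (1.41% of windows) and the overlapping GGGNNTTCC (4.98%) also occurred in Irf2. Only these exact letters were searched for, so other forms of an NF-kB site, in Irf1 or elsewhere, would have been missed. None of these letters was found in the windows of Irf3, Irf4, Irf5, Irf7 or Irf9, which says only that they are not in these windows.

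Compared per length of the principal transcript, Irf5 was the most abundant member in untreated wild-type cells, at 67.7 ± 6.83 CPM per kb (SD, n = 2). Irf2 (23.0 ± 0.539 CPM per kb) and Irf8 (22.9 ± 2.20) followed and did not differ beyond their spread. Irf7 (18.4 ± 1.21) and Irf9 (17.9 ± 1.19) overlapped each other, and Irf3 lay just below at 16.5 ± 0.173. Irf1 stood at 9.73 ± 1.38 and Irf4 was lowest at 1.06 ± 0.0694 CPM per kb. After LPS the wild-type order began with Irf7 (145 ± 77.3 CPM per kb), Irf1 (104 ± 52.8) and Irf5 (91.9 ± 31.8), whose libraries overlapped. Irf9 (49.5 ± 0.298), Irf8 (42.4 ± 1.12) and Irf2 (31.4 ± 16.4) came next, Irf8 and Irf2 overlapping, ahead of Irf3 (13.6 ± 0.0827) and Irf4 (3.47 ± 0.901).

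The family as a whole changed in makeup. Summed per length, the 8 genes gave 174 to 180 CPM per kb in untreated wild type and 356 to 608 after LPS. Irf5 made up 36.1% to 40.2% of that sum before LPS and 18.8% to 19.5% after it, while Irf7 went from 9.74% to 11.1% up to 25.5% to 32.9%. In the first LPS-treated Socs1-/- library the sum was 177 CPM per kb and Irf5 made up 57.8% of it. In untreated Socs1-/- libraries the sum was 164 to 167 CPM per kb, of which Irf5 made up 43.2% to 52.9%.

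**Figure D1:**
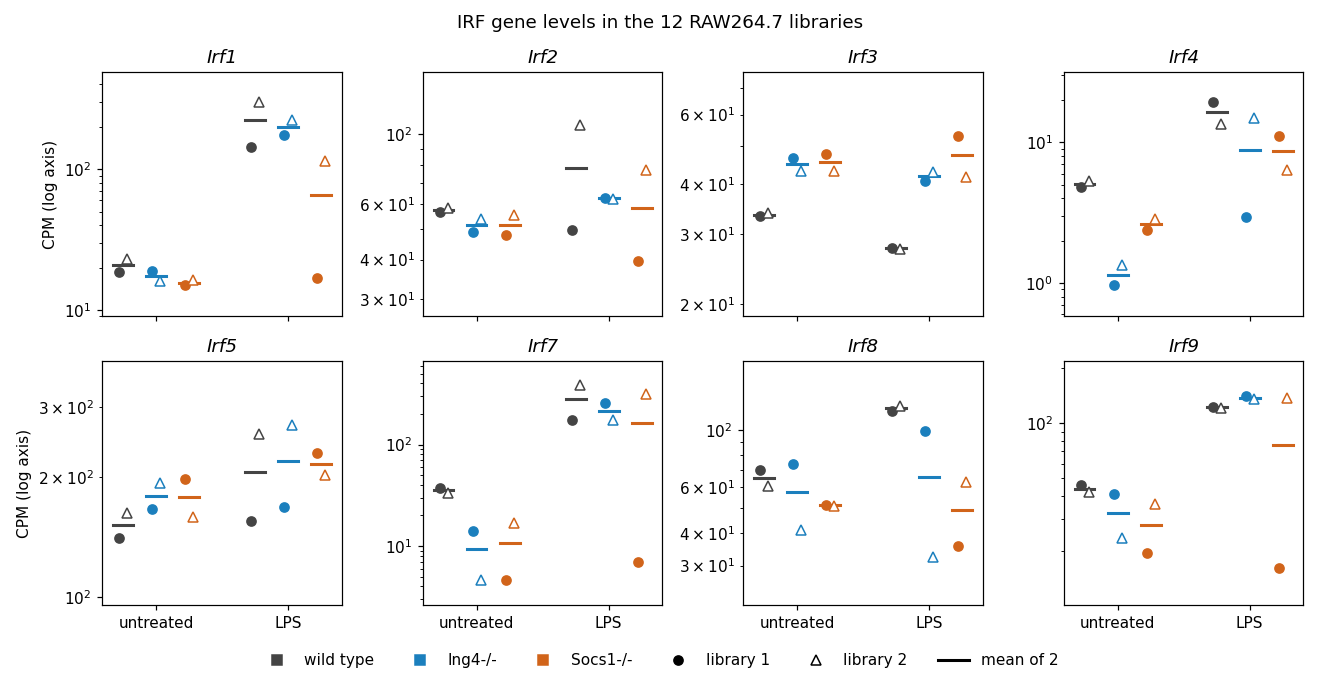
CPM of each interferon regulatory factor gene (log axes that differ between panels) in the 12 libraries, by treatment; circles and triangles are the first and second library of a group and bars the mean of 2. Irf1, Irf7 and Irf9 are high in 5 LPS libraries. In the first LPS-treated Socs1-/- library Irf1 and Irf7 are within the untreated range and Irf9 is below it. Irf3 is higher in all 8 knockout libraries than in all 4 wild-type ones.

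The first comparison asked how LPS changed the family in each genotype. Irf1 and Irf4 rose in Ing4-/- cells, at log2 changes of 3.51 (SE 0.774) and 2.95 (SE 0.679), and in each genotype 7 of the 8 genes had a positive estimate (all but Irf3 in wild type and Ing4-/-, all but Irf8 in Socs1-/-). In a quasi-likelihood test by edgeR, Benjamini-Hochberg adjusted over all tested genes, 0 of 8 passed in wild type, 2 in Ing4-/- and 0 in Socs1-/-. Of all genes, 2.89%, 8.02% and 1.98% passed in those comparisons, and 1.89%, 4.73% and 1.57% passed as higher. Unadjusted p-values under 0.05 numbered 2, 4 and 3 of the 8, beside 22.6%, 28.2% and 17% of all genes. DESeq2 called 1, 4 and 1 (11.1%, 17.1% and 6.59% of all genes), and limma-voom 0, 1 and 0 (2.8%, 6.73% and 1.75%). Without the first LPS-treated Socs1-/- library, edgeR called 3, 4 and 3 as higher, against 7.79%, 11.2% and 9.03% of all genes. Leaving out the second one instead gave 3 in wild type and 4 in Ing4-/-, beside 14.4% and 20.4% of all genes. In either case the Socs1-/- LPS group is a lone library, whose spread is taken from the other groups. The median log2 change of the 8 genes was 1.18, 1.19 and 0.87, beside 0.01, 0.00 and 0.01 over all genes. Upper-quartile scaling moved the all-gene medians to -0.11, -0.13 and -0.13, and turned the Irf3 estimate in Socs1-/- from 0.06 to a negative value.

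IRF3 is the constitutive factor that TLR4 signalling activates by phosphorylation. Irf3 (ENSMUSG00000003184, GRCm38 chromosome 7, 44997648 to 45002848, plus strand) stood at 33.3 and 33.8 CPM in untreated wild type and at 27.7 and 27.5 CPM after LPS. Ing4-/- libraries gave 46.7 and 43.3 CPM untreated and 40.7 and 43.1 CPM with LPS, and Socs1-/- libraries gave 47.8 and 43.3, then 53.1 and 41.7 CPM. LPS libraries were below untreated ones in wild type and in Ing4-/- and overlapped them in Socs1-/-. The log2 changes with LPS were -0.28 (SE 0.155), -0.10 and 0.06, none of which passed (adjusted p by edgeR 0.315, 0.71 and 0.896). Without the first Socs1-/- LPS library the last was -0.12.

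IRF5 and IRF7 are the other factors activated directly by the TLR kinases, IRF5 through MyD88. Irf5 (ENSMUSG00000029771, chromosome 6, 29526625 to 29541871, plus strand) was at 141 and 163 CPM in untreated wild type and at 156 and 256 CPM after LPS. Values were 166 and 194, then 168 and 271 CPM in Ing4-/-, and 198 and 159, then 230 and 203 CPM in Socs1-/-. Only in Socs1-/- did both LPS libraries exceed both untreated ones, and the estimates of 0.44, 0.29 and 0.28 did not pass (adjusted p by edgeR 0.394, 0.558 and 0.681). Irf5 shares 411 exon bases (14.1% of its exons) with Tnpo3 on the opposite strand, at 3440 to 5219 counts per library. The strand setting of the authors' counting is not stated in the labels or headers, so reads in that stretch cannot be assigned with certainty.

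Irf7 (ENSMUSG00000025498, chromosome 7, 141262706 to 141266481, minus strand), the amplifier of the interferon response, had the widest range of the family. It stood at 36.9 and 33.6 CPM in untreated wild type and at 174 and 383 CPM after LPS. Ing4-/- libraries gave 14.1 and 4.66 CPM untreated and 256 and 174 CPM with LPS. Socs1-/- libraries gave 4.64 and 16.7 CPM untreated, and 6.97 and 316 CPM with LPS. Both LPS libraries were above both untreated ones in wild type and in Ing4-/-, whereas in Socs1-/- the first LPS library lay between the untreated ones. The log2 changes were 2.98 (SE 1.37), 4.51 (SE 1.48) and 3.93 (SE 1.44), with adjusted p by edgeR of 0.242, 0.0916 and 0.224. Without that library they were 2.98 (SE 0.713), 4.51 (SE 0.772) and 4.90. The wild-type and Ing4-/- changes passed (adjusted p by edgeR 0.0296 and 0.0059). The Socs1-/- change then rested on a lone LPS library, and was -0.61 without the second Socs1-/- LPS library instead.

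IRF9 is the DNA-binding subunit of ISGF3. Irf9 (ENSMUSG00000002325, chromosome 14, 55603571 to 55610030, plus strand) was at 46.0 and 41.8 CPM in untreated wild type and at 122 and 121 CPM after LPS. Ing4-/- libraries gave 40.8 and 23.6 CPM, then 141 and 135 CPM with LPS. In Socs1-/- the untreated libraries gave 19.4 and 35.9 CPM and the LPS libraries 16.1 and 137 CPM. The 5 LPS libraries other than the first Socs1-/- one lay within 121 to 141 CPM and above all untreated libraries, and that library lay below all 6 of them. Log2 changes of 1.47 (SE 0.771), 2.10 (SE 0.787) and 1.46 (SE 0.774) did not pass (adjusted p by edgeR 0.297, 0.126 and 0.386). Without that library they were 1.47, 2.10 and 2.31. The wild-type and Ing4-/- changes passed (adjusted p by edgeR 0.014 and 0.0024). The Socs1-/- change then rested on a lone LPS library, and was -0.78 without the second Socs1-/- LPS library instead.

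IRF1 and IRF2 bind the same sites with largely opposed activity. Irf1 (ENSMUSG00000018899, chromosome 11, 53770014 to 53778374, plus strand) was at 18.7 and 22.9 CPM in untreated wild type and at 143 and 302 CPM after LPS. Ing4-/- libraries gave 19.0 and 15.9 CPM, then 175 and 223 CPM with LPS. Socs1-/- libraries gave 14.9 and 16.4 CPM, then 16.8 and 115 CPM with LPS. In all 3 genotypes both LPS libraries lay above both untreated ones, although the first Socs1-/- LPS library did so by a factor of only 1.07 over the untreated mean, against 7.33 for the second. The rise in Ing4-/- passed (log2 3.51, adjusted p = 0.0348 by edgeR), and missed the threshold without any of the 10 libraries other than the Socs1-/- LPS pair (adjusted p by edgeR 0.0528 to 0.183). The wild-type change of 3.42 (SE 0.770) fell short (adjusted p = 0.0568 by edgeR), as did the Socs1-/- change of 2.07 (SE 0.734, adjusted p = 0.213). Without the first Socs1-/- LPS library the wild-type and Ing4-/- rises passed, at 3.42 and 3.51 (adjusted p by edgeR 0.0005 and 0.0003). The Socs1-/- change then rested on a lone LPS library, at 2.88, and was 0.10 without the second Socs1-/- LPS library instead. With the replicate number as a block within each genotype, the wild-type rise also passed (adjusted p = 0.0352 by edgeR), as did Irf7 (0.0269) and Irf9 (0.0379) in Ing4-/-, where 14.2% (wild type) and 27.2% (Ing4-/-) of all genes passed. The authors' deposited table for wild type, of 867 genes, lists Irf1 as higher after LPS (fold column 2.64, read as log2, authors' adjusted p = 5.04e-06). Of the other members it lists only Irf4.

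Irf2 (ENSMUSG00000031627, chromosome 8, 46739732 to 46847458, plus strand) was at 56.6 and 58.5 CPM in untreated wild type and at 49.5 and 107 CPM after LPS. Ing4-/- gave 49.0 and 53.7, then 62.9 and 62.2 CPM, and Socs1-/- gave 47.9 and 55.4, then 39.6 and 76.9 CPM. The LPS libraries lay apart from the untreated ones only in Ing4-/-, and the changes of 0.45, 0.28 and 0.17 did not pass (adjusted p by edgeR 0.512, 0.666 and 0.864). The Socs1-/- change was 0.58 without its first LPS library. In wild type the second LPS library exceeded the first 2.17-fold for Irf2, 2.12-fold for Irf1, 2.21-fold for Irf7 and 1.65-fold for Irf5. Irf3, Irf8 and Irf9 differed between the same pair by 1.01-, 1.04- and 1.01-fold. Without that second library the Irf2 change in wild type was -0.22.

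IRF4 and IRF8 are the close relatives that work with PU.1, IRF8 being central to macrophage identity. Irf4 (ENSMUSG00000021356, chromosome 13, 30749226 to 30766976, plus strand) had 22 to 117 counts per untreated library. It stood at 4.83 and 5.30 CPM in untreated wild type and at 19.6 and 13.5 CPM after LPS. Ing4-/- libraries gave 0.959 and 1.34, then 2.95 and 14.8 CPM, and Socs1-/- libraries gave 2.39 and 2.84, then 11.04 and 6.35 CPM. LPS libraries were above untreated ones of the same genotype in all 3 genotypes, the first LPS-treated Socs1-/- library included. The rise in Ing4-/- passed (log2 2.95, adjusted p = 0.0368 by edgeR) and was 1.36 without its second LPS library (adjusted p = 0.141). It passed without either Socs1-/- LPS library or the first Ing4-/- LPS library, and missed the threshold without any of the other 9 (adjusted p by edgeR 0.0566 to 0.186) and by limma-voom (0.0988). The changes of 1.71 (SE 0.625) in wild type and 1.74 (SE 0.637) in Socs1-/- did not pass (adjusted p by edgeR 0.159 and 0.222). The authors' deposited table for wild type lists Irf4 as higher (fold column 1.35, read as log2, authors' adjusted p = 0.0465).

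Irf8 (ENSMUSG00000041515, chromosome 8, 120736358 to 120756694, plus strand) stood at 69.6 and 60.8 CPM in untreated wild type and at 118 and 123 CPM after LPS. Ing4-/- libraries gave 73.7 and 41.0, then 99.0 and 32.2 CPM, and Socs1-/- libraries gave 51.3 and 51.0, then 35.5 and 63.0 CPM. Treated and untreated libraries were apart in wild type and overlapped in both knockouts. The log2 changes of 0.89 (SE 0.490), 0.20 and -0.06 did not pass (adjusted p by edgeR 0.32, 0.841 and 0.978), and the last was 0.30 without the first Socs1-/- LPS library. Irf8 in Ing4-/- cells was 3.07-fold higher in the first LPS library than in the second, where Irf4 was 5.04-fold lower in the first than in the second.

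In wild type both LPS libraries lay above both untreated ones for 5 of 8 genes (30.7% of all genes) and below for Irf3 (30.7%). The counts were 5 higher (29.1%) and 1 lower (28.6%) in Ing4-/-, and 3 higher (22.5%) and 0 lower (20%) in Socs1-/-.

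**Figure D2:**
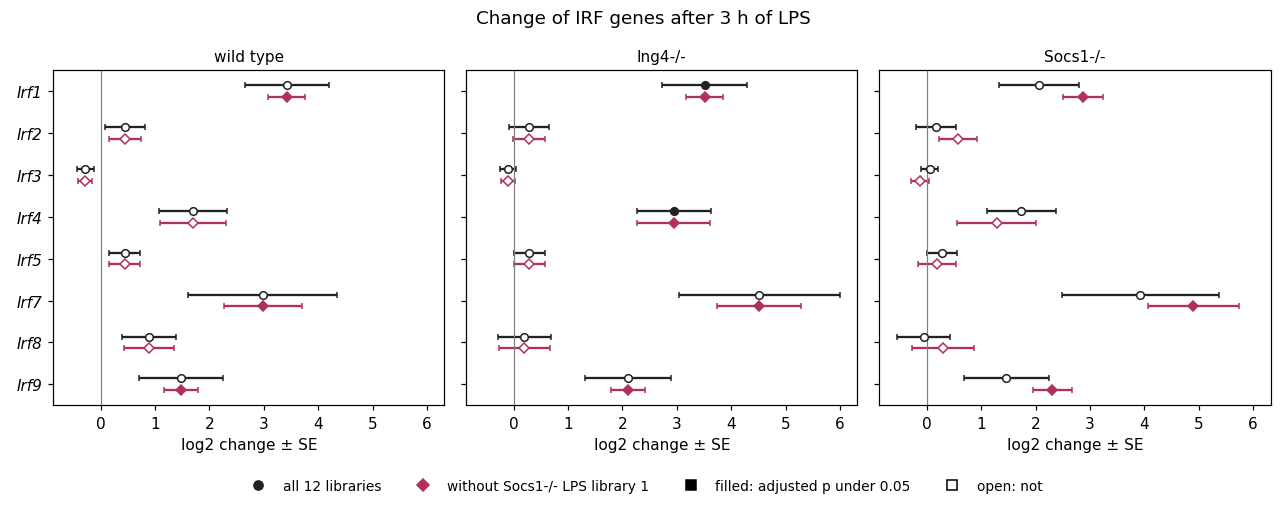
Log2 change ± SE of each gene after 3 h of LPS in the 3 genotypes, fitted with all 12 libraries (circles) and without the first LPS-treated Socs1-/- library (diamonds); filled symbols have an adjusted p under 0.05. With all libraries only Irf1 and Irf4 in Ing4-/- are filled. Without that library Irf4 in Ing4-/- stays filled, and Irf1, Irf7 and Irf9 are filled in all 3 genotypes, with narrower error bars. The Socs1-/- LPS group is then a lone library.

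The second comparison set each knockout against wild type in untreated cells, and both knockout comparisons share the wild-type libraries. Irf7 and Irf4 had the largest estimates, both lower in the knockouts, but 0 of 8 genes passed in either by edgeR. Of all genes, 0.141% passed for Ing4-/- and 0.047% for Socs1-/-, and unadjusted p-values under 0.05 numbered 2 and 1 of 8 (5.25% and 5.15% of all genes). DESeq2 (0.987% and 0.697% of all genes) and limma-voom (0.305% and 0.0626%) called 0 in both. The Irf7 libraries of Ing4-/- (14.1 and 4.66 CPM) and Socs1-/- (4.64 and 16.7 CPM) all lay below the wild-type pair of 36.9 and 33.6 CPM. The differences were -1.91 (SE 1.34) and -1.73 (SE 1.33) on the log2 scale, with an adjusted p of 1.00 each by edgeR.

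Irf4 was at 0.959 and 1.34 CPM in untreated Ing4-/-, at 2.39 and 2.84 CPM in untreated Socs1-/- and at 4.83 and 5.30 CPM in wild type, with no overlap between any of the 3 genotypes. The difference from wild type was -2.14 (SE 0.667, adjusted p = 0.57 by edgeR) for Ing4-/- and -0.95 (SE 0.632, adjusted p = 1.00) for Socs1-/-. With a fit of the untreated wild-type and Ing4-/- libraries alone, the Irf4 difference passed (-2.14, adjusted p = 0.0273 by edgeR), as did 1.48% of all genes. Beside Irf4, the 5 dendritic-cell markers, of which Flt3 was at 0 in all libraries, summed to 0.703 to 0.731 CPM in untreated Ing4-/-, 2.75 to 5.51 CPM in untreated Socs1-/- and 2.53 to 2.92 CPM in untreated wild type. Zbtb46 was the only 1 of the 5 with a mean of at least 1 CPM (median 2.20 CPM), and Clec9a and Siglech had at most 2 and 6 counts in any library. Their part in the Irf4 result was not tested. In bulk RNA, fewer cells expressing a gene and less RNA per cell cannot be told apart.

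Counting both knockouts, all 4 untreated knockout libraries were below both wild-type ones for Irf2, Irf4, Irf7 and Irf9 (4 of 8, beside 11.4% of all genes). For Irf2 and Irf9 the gap was narrow. Their knockout libraries reached 55.4 and 40.8 CPM, and the lower wild-type ones had 56.6 and 41.8 CPM. Log2 differences in Ing4-/- and Socs1-/- were -0.16 and -0.16 for Irf2 (SE 0.366 each). For Irf9 they were -0.45 and -0.67 (SE 0.760 and 0.763). The untreated knockout libraries were above for Irf3 (1 of 8, beside 9.11%). Taken by knockout, the pair of Ing4-/- libraries lay above wild type for 2 genes (18.4% of all genes) and below for 4 (20.1%). The pair of Socs1-/- libraries lay above for 1 (19%) and below for 6 (20.4%). The median log2 difference of the 8 genes was -0.22 for Ing4-/- and -0.38 for Socs1-/-, beside 0.01 over all genes in both.

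After LPS, 0 of 8 genes passed against wild type in either knockout by edgeR, where 0.102% (Ing4-/-) and 0.0626% (Socs1-/-) of all genes did. Unadjusted p-values under 0.05 numbered 1 and 3 (7.09% and 10.6% of all genes), DESeq2 called 0 and 1 (Irf3; 1.1% and 1.9% of all genes), and limma-voom called 0 in both (0.251% and 0.196%). Irf8 had 99.0 and 32.2 CPM in Ing4-/- and 35.5 and 63.0 CPM in Socs1-/-, all 4 below the wild-type pair of 118 and 123 CPM (1 of 8 genes, beside 8.43% of all genes). The Irf8 differences were -0.88 (SE 0.490, adjusted p = 0.83 by edgeR) and -1.29 (SE 0.494, adjusted p = 0.416), the latter -0.94 without the first Socs1-/- LPS library. Irf1 was lower in the Socs1-/- pair (16.8 and 115 CPM) than in the wild-type pair (143 and 302 CPM). Its difference was -1.76 (SE 0.719, adjusted p = 0.444 by edgeR), and -0.95 (SE 0.393, adjusted p = 0.437) without that library. Irf7 and Irf9 in Socs1-/- were -0.78 and -0.68 from wild type with all libraries, and 0.19 and 0.17 without that library, so their direction rested on it. Without the second Socs1-/- LPS library instead, 4 genes passed against wild type (Irf1, Irf3, Irf7 and Irf9, beside 9% of all genes), Irf1 at -3.73 (adjusted p = 0.0044 by edgeR), with the first library as the lone one. Taken by knockout, Ing4-/- lay above wild type for 2 genes (19.4% of all genes) and below for 1 (18.2%), and Socs1-/- above for 1 (16.8%) and below for 3 (18%).

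Irf3 was the member whose knockout libraries stood apart in both treatments. Its 8 knockout libraries spanned 40.7 to 53.1 CPM and its 4 wild-type libraries 27.5 to 33.8 CPM. Irf3 was the 1 member of 8 with all knockout above all wild-type libraries, as were 0.971% of all genes, and 0 members had all below, as did 2.04%. The log2 differences from wild type were 0.42 (SE 0.155) and 0.44 (SE 0.155) in untreated Ing4-/- and Socs1-/-. They were 0.60 (SE 0.155) and 0.78 (SE 0.155) after LPS, and the last was 0.60 without the first Socs1-/- LPS library. The comparisons within a treatment share their wild-type libraries, and none passed (adjusted p by edgeR 0.739, 0.756, 0.339 and 0.143). DESeq2 called the last (adjusted p = 0.0029). The authors' deposited knockout tables, of 74 to 183 genes, list none of the 8.

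**Figure D3:**
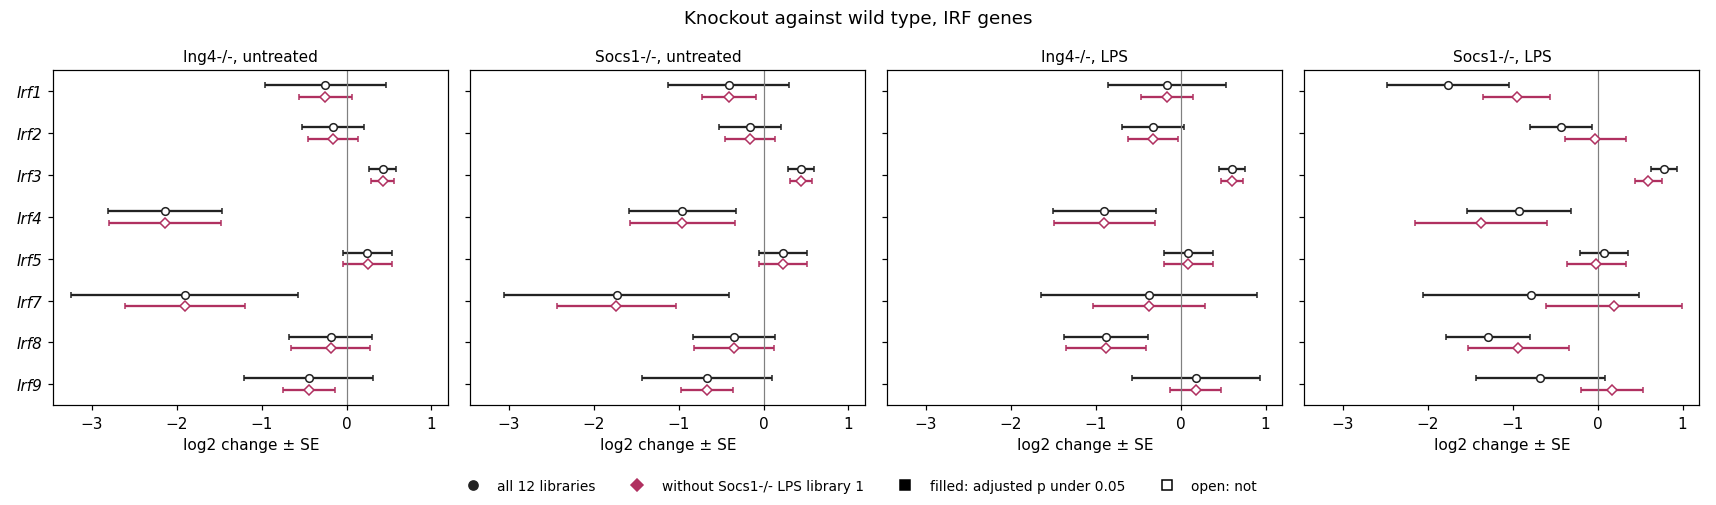
Log2 difference ± SE between each knockout and wild type, untreated or after LPS, with all 12 libraries (circles) and without the first LPS-treated Socs1-/- library (diamonds); open symbols have an adjusted p of 0.05 or more. Irf3 lies to the right of 0 in all 4 panels, from 0.42 to 0.78, and Irf4 to the left in all 4, and no symbol is filled.

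Whether the LPS change itself differed between a knockout and wild type was tested as an interaction. None of the 8 genes passed in either by edgeR, at an adjusted p of 1.00, where 0% of all genes passed, and none had an unadjusted p under 0.05. DESeq2 and limma-voom called 0 as well. Without the second Socs1-/- LPS library the Irf1 interaction passed (-3.32, adjusted p = 0.0492 by edgeR), as did 0.459% of all genes. The largest estimates with all libraries were 1.53 (SE 1.82) for Irf7 and 1.24 (SE 0.891) for Irf4 in Ing4-/-, and -1.35 (SE 1.00) for Irf1 in Socs1-/-, the last -0.54 (SE 0.497, adjusted p = 1.00 by edgeR) without the first Socs1-/- LPS library. Irf8 had -0.69 (SE 0.689) and -0.95 (SE 0.690), the latter -0.59 without that library. In Socs1-/- the Irf7, Irf9 and Irf4 interactions were 0.95, -0.01 and 0.03 with all libraries and 1.92, 0.84 and -0.42 without it, at an adjusted p of 1.00 each by edgeR. Standard errors with all libraries ran from 0.218 for Irf3 to 1.82 for Irf7.

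The first LPS-treated Socs1-/- library divided the family. Irf1 (16.8 CPM), Irf7 (6.97 CPM) and Irf9 (16.1 CPM) were within or below the untreated range there. Irf4 (11.04 CPM), Irf5 (230 CPM) and Irf3 (53.1 CPM) were above all 6 untreated libraries, which reached 5.30, 198 and 47.8 CPM. Irf2 (39.6 CPM) and Irf8 (35.5 CPM) were below all 6, which went down to 47.9 and 41.0 CPM. Stat2, which encodes a direct partner of IRF9, was at 11.7 CPM in it, below all untreated libraries (21.6 to 33.0 CPM). The interferon beta gene Ifnb1 was at 5.91 CPM in that library, against at most 0.0872 CPM untreated and 9.08 to 27.2 CPM in the other LPS libraries. The chemokine gene Cxcl10 was at 478 CPM, against at most 5.29 CPM untreated and 1214 to 2598 CPM in the others. Tank (137 CPM) and Ticam1, which encodes TRIF (103 CPM), were within and above the other LPS libraries' ranges of 119 to 183 and 65.4 to 97.1 CPM. Some other genes of the same list of adaptors and kinases were below the other LPS libraries there. The RNA sensor genes Ifih1, Ddx58 and Dhx58 were at 62.1, 11.9 and 6.93 CPM, against 541 to 1350, 270 to 552 and 83.4 to 243 CPM in the other LPS libraries. The kinase gene Ikbke was at 91.4 CPM, against 338 to 721 CPM. Ifih1 and Ikbke were still above all untreated libraries, which reached 19.6 and 63.4 CPM. Ddx58 and Dhx58 were within the untreated ranges of 9.71 to 44.6 and 5.29 to 20.4 CPM. Of 35 interferon-stimulated and IRF target genes, 14 exceeded every untreated library in it, against 32 to 34 in the other LPS libraries. For the 8 members that number was 3, against 5 to 7. Of all genes, 21.8% exceeded every untreated library in it, against 29.3% to 31.8% in the others. These non-member genes were singled out after their values were seen.

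**Figure D4:**
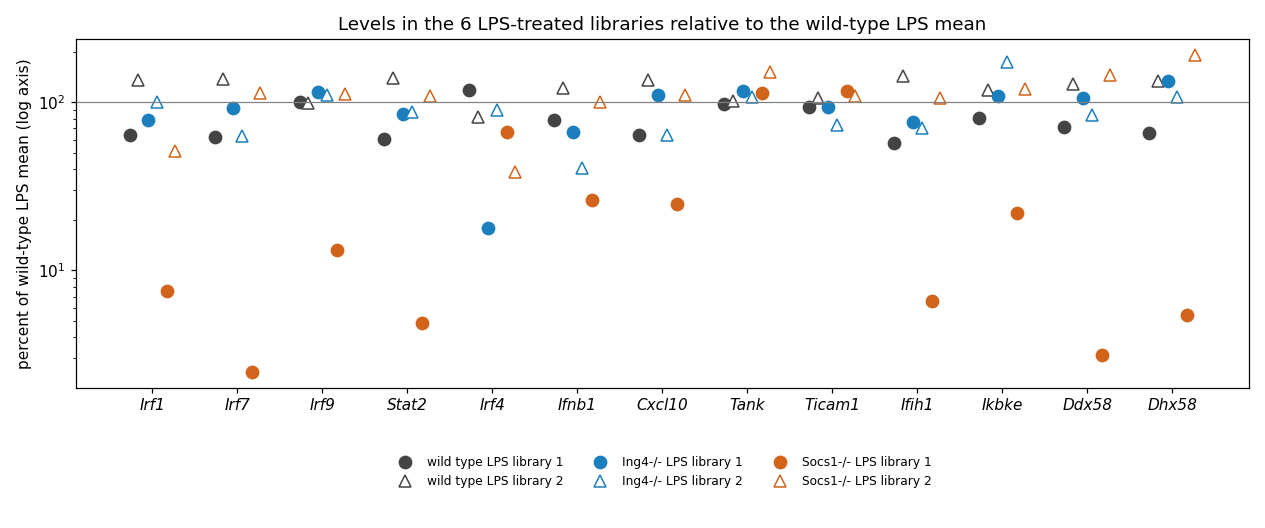
Levels in the 6 LPS-treated libraries as percent of the wild-type LPS mean (log axis) for 4 interferon regulatory factor genes and 9 genes of their pathway; circles and triangles are the first and second library. The filled Socs1-/- circle lies at 2.50% for Irf7, 7.55% for Irf1 and 13.2% for Irf9, at 66.8% for Irf4, between 3.13% (Ddx58) and 21.9% (Ikbke) for the 4 genes on the right, and above 100% for Tank and Ticam1.

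The surrounding pathway was described with 4 lists, whose counts stand beside 1.89%, 4.73% and 1.57% of all genes higher in wild type, Ing4-/- and Socs1-/-, and 7.79%, 11.2% and 9.03% higher (6.69%, 9.25% and 6.73% lower) without the first LPS-treated Socs1-/- library. Of 21 tested adaptors and kinases upstream of IRF3, IRF5 and IRF7, 3 rose with LPS in wild type and 0 fell: the RNA sensor gene Ifih1 (log2 5.74), the kinase gene Irak2 (1.78) and the TBK1 adaptor gene Tank (0.83). The list's median was 0.44, and 8 rose in Ing4-/- and 3 in Socs1-/-. Without the first LPS-treated Socs1-/- library, 10, 11 and 10 rose. Of 13 interferon receptors, JAKs and STATs, 0 passed in wild type (median 0.35), 1 rose in Ing4-/- (Jak2, log2 2.96) and 0 in Socs1-/-. Without that library 4, 6 and 5 rose and 1 fell in each.

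Of 20 tested partners and regulators of IRF proteins, 1 rose in wild type (Peli1, a ubiquitin ligase gene, log2 4.03; list median 0.86), 3 in Ing4-/- and 1 in Socs1-/-. Spi1, which encodes the IRF4 and IRF8 partner PU.1, was among the 3 (log2 1.10). Without the first LPS-treated Socs1-/- library 8 rose in each genotype, and 0, 1 and 2 fell. Of 35 tested interferon-stimulated and IRF target genes, 8 rose in wild type, 15 in Ing4-/- and 7 in Socs1-/-, and none fell. Their median in wild type was 6.45, and the genes with the smallest p there were Cxcl10 (log2 9.30), Ifnb1, the costimulatory receptor gene Cd40 (7.08) and the chemokine gene Cxcl11 (8.48). For Ifnb1, with 1 and 0 counts in untreated wild type, no fold is given: it stood at 0.0439 and 0 CPM there and at 17.7 and 27.2 CPM after LPS. Without that library 29, 32 and 32 of 36 rose. In untreated cells the medians of these targets against wild type were -0.76 in Ing4-/- and -0.77 in Socs1-/-, and 0 of them passed. The medians were recomputed with a ratio of counts in place of the fitted value for genes with a group at 0. Both groups had a floor of 3 counts, and genes with at most 3 counts in each group were left out. No gene met either condition with LPS in wild type, so its median of 6.45 is the fitted one. In each untreated knockout comparison 1 gene was replaced and 1 left out, and the medians were -0.82 and -0.80. Genes near 0 in untreated cells passed the filter on low counts only through LPS-treated libraries. No gene of the 4 lists passed in any knockout comparison or interaction.

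Over the 12 libraries, Irf7 and Irf9 had the closest profiles within the family (Pearson r of log2 CPM 0.972), followed by Irf1 with Irf7 (0.929) and with Irf9 (0.925). Irf3 and Irf8 had the most negative r (-0.746). These r values are descriptions over libraries that share treatment and genotype, and the first LPS-treated Socs1-/- library is a low point for Irf1, Irf7 and Irf9 alike. Among 10955 genes ranked, those most like Irf7 were Oasl2 (0.995), Usp18 (0.994) and Ifi44l (0.994), and those most like Irf9 were Ifi44 (0.990), Oas1b (0.988) and Xaf1 (0.987). Irf1 was closest to Clcn5 (0.991), Apobr (0.989) and Gbp2 (0.987), and Irf3 to Irak1 (0.977), Man2c1 (0.945) and Tsc2 (0.941). Irak1 encodes a kinase of the MyD88 branch. Like Irf3, it was higher in the 8 knockout libraries (130 to 155 CPM) than in the 4 wild-type ones (89.9 to 108 CPM). This held for 0.971% of all genes. Irak1 was picked by its correlation with Irf3 over these same libraries, so a shared split follows in part from that choice. Irf2 was closest to Rbm43 (0.936), Apobec3 (0.927) and Sfxn2 (0.926), and Irf4 to Sfr1 (0.928), Klf6 (0.896) and Eva1b (0.891). Irf5 was closest to Plcb3 (0.904), Ostf1 (0.894) and Parp4 (0.881), and Irf8 to Mrpl33 (0.911), Prkd3 (0.892) and Atp5j (0.884).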

How the data were processed

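Poly(A) RNA was sequenced as single 75-base reads from a stranded kit, per the labels. The submitters' processing notes name FastQC, HISAT, StringTie, HTSeq and DESeq2 without versions, and the build GRCh38. Yet 95.02% of 1345 gene positions in the deposited comparison tables equal GENCODE M21 on GRCm38, which was used here. The authors deposited whole-number counts per gene, and 5 tables of significant genes with a log2 fold change, a p-value and normalized counts (a signal not used here). The treatment note names HEK293T cells, whereas the samples are labelled RAW264.7.

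Counts were fitted with edgeR 4.0.16 (R 4.3.3): filterByExpr, TMM scaling, a robust quasi-likelihood fit of 6 group means over all 12 libraries (6 residual degrees of freedom, biological coefficient of variation 0.289), Benjamini-Hochberg adjustment over 12771 genes, and a call at an adjusted p under 0.05. SE is the log2 change divided by the root of F. The scripts were tested on simulated data. Per-length levels divide CPM by the principal transcript's length. Alternatives were DESeq2 1.42.0, limma-voom (limma 3.58.1), other scalings and filters, fits of the compared groups alone, replicate blocks and leaving out each library. The members and lists were chosen with earlier results of these data known, and giving values without the first LPS-treated Socs1-/- library was added after seeing the data. Beside the 8 genes, the text names up to 4 called genes per list by smallest p in wild type and the 3 genes most correlated with each member, leaving out predicted and clone names. Of 22 upstream genes 21 matched the table.

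Libraries with the same replicate number deviated together within a genotype across treatments (r 0.447 to 0.601 over 3 genotypes), and did not between genotypes (r -0.129 to 0.156). The labels give the number no meaning, so the fit without a block is the main one.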

Additional observations from a re-analysis of the deposited data

How the results depend on the processing

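The number of the 8 genes called was recomputed in each comparison. With LPS in wild type (0 called), DESeq2 called 1, no filter 5, the compared groups alone 5, and 0 to 3 were called with a library left out. In Ing4-/- (2 called), DESeq2 called 4, voom 1, no filter 4 and the compared groups alone 3, and leaving out a library gave 0 to 4. In Socs1-/- (0 called), DESeq2 called 1, no filter 4, and leaving out a library gave 0 to 3. Of the knockout comparisons (0 called), Ing4-/- untreated had 2 with no filter and 1 with the compared groups alone, Socs1-/- untreated 1 with no filter, and Ing4-/- with LPS 1 with no filter. Socs1-/- with LPS had 1 with DESeq2, 3 with no filter and 0 to 4 with a library left out. The interactions had 1 each with no filter, and the Socs1-/- one 0 to 1 with a library left out; in the others leaving out a library gave 0. With no filter, of 23947 genes, the untreated knockouts called 516 and 429, the knockouts with LPS 539 and 919, and the interactions 26 and 64 (Ing4-/- then Socs1-/-). For LPS against untreated, no filter called 8.69%, 10.8% and 6.11% of all genes in wild type, Ing4-/- and Socs1-/-. The compared groups alone called 18.2%, 15.2% and 0%. In wild type both settings called Irf1, Irf4, Irf7, Irf8 and Irf9.

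The replicate block over all groups called 1 gene in wild type (Irf1) and 2 in Ing4-/-, and the block within genotype called 1 and 4. Of all genes the first called 3.48% and 9.79%, and the second 14.2% and 27.2%. Neither block changed another count.

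Of 36 gene changes larger than their SE, 6 turned direction, all with a library left out. Without the second wild-type LPS library these were Irf2 with LPS in wild type (-0.22, up to 0.90 without another library) and Irf2 in Socs1-/- against wild type with LPS (0.23, down to -0.99). Without the second Ing4-/- LPS library they were Irf5 with LPS in Ing4-/- (-0.10, up to 0.59) and the Irf4 interaction (-0.35, up to 1.98). Without the second Socs1-/- LPS library they were Irf7 and Irf9 with LPS in Socs1-/- (-0.61, up to 5.12, and -0.78, up to 2.31). The cause was not tested. Over all genes the calls with LPS in wild type, Ing4-/- and Socs1-/- were 369, 1024 and 253, against 1420, 2187 and 842 by DESeq2, 2080, 2588 and 1462 with no filter, and 2197, 1820 and 0 with the compared groups alone. With 2 libraries a group and 22 to 117 untreated counts, Irf4 is the member measured with the least depth.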
